A study of Mus musculus with 7 samples.

Results

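The circadian clock genes described here are 10 genes: the activators Clock and Arntl (also called Bmal1), the repressors Per1, Per2, Per3, Cry1 and Cry2, the nuclear receptor repressors Nr1d1 and Nr1d2 (REV-ERBα and REV-ERBβ), and the output transcription factor Dbp. They were taken by name, as all 14 probes other than controls whose gene name on the array equals one of the 10, among 55681 such probes and 36406 gene names. Levels were measured in satellite cells, the resident stem cells of skeletal muscle, from male C57BL/6 mice whose muscle had not been injured. The geriatric group had 4 arrays, from mice aged 28, 28, 29 and 30 months, and the young group had 3 arrays, from mice aged 2, 2 and 3 months. Cells were sorted from dissociated muscle as positive for integrin α7 and CD34 and negative for the antigens CD31, CD45, CD11b and Sca1. A whole-transcript amplification meant for small cell numbers preceded Cy3 labelling. Whether each sample came from 1 mouse or a pool, and the time of day at which the mice were killed, are not given in the sources used here.

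In mammalian cells CLOCK and BMAL1 bind E-box sequences as a pair and switch on the Per, Cry, Nr1d and Dbp genes. PER and CRY proteins then enter the nucleus and repress that pair, and REV-ERB proteins repress Arntl itself, so Arntl RNA peaks at a time of day opposite to that of Nr1d1 and Dbp. The loop runs in nearly all tissues, muscle and its stem cells among them, so the levels of most of these genes depend on the hour at which a tissue is taken. In these samples that hour is unknown, and its part in any difference was not tested.

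The descriptions of geriatric replicates 1 and 2 give them a single sample name. Their arrays correlated at r = 0.992 across probes, against 0.914 to 0.954 for the other 20 pairs of arrays. Over the tested clock probes they differed by a median of 0.028 log2 units, against 0.234 to 0.67 for the other pairs. They were averaged and counted as 1 sample, which left 3 geriatric samples and 3 young samples. The 75th percentile of the signal was 1330 to 1609 intensity units over the 7 arrays, and a level is the log2 of a signal over this percentile. All 9 satellite cell markers examined were well above background on every array. Of them 8 overlapped between ages and 1 did not, where 12.8% of all features did not. The exception was Itga7, which encodes the sorting antigen integrin α7, at 1.83, 1.32 and 1.60 in geriatric samples and 1.92, 2.10 and 2.04 in young samples (log2 difference -0.44, SE 0.19, limma adjusted p = 0.703).

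No clock gene passed the test for a difference with age. Of the 10 genes, 9 had a probe well above background on every array and were tested, and 0 passed (limma, adjusted p of 0.05 over all features), against 0.0255% of 27398 features tested. At an unadjusted limma p of 0.05, 1 of the 9 (11.1%) passed, Per3, against 7.23% of all features. By level 8 of the 9 were higher in geriatric cells and Arntl was lower, where 49.7% of all features were higher. The count of 8 rested in part on young replicate 3, without which it was 5 of 9. The median log2 difference of the 9 was 0.33, with differences between -0.34 and 0.77, and the median over all features was -0.0024. In RNA from sorted cells in bulk, fewer cells expressing a gene and less RNA per cell cannot be told apart.

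**Figure D1:**
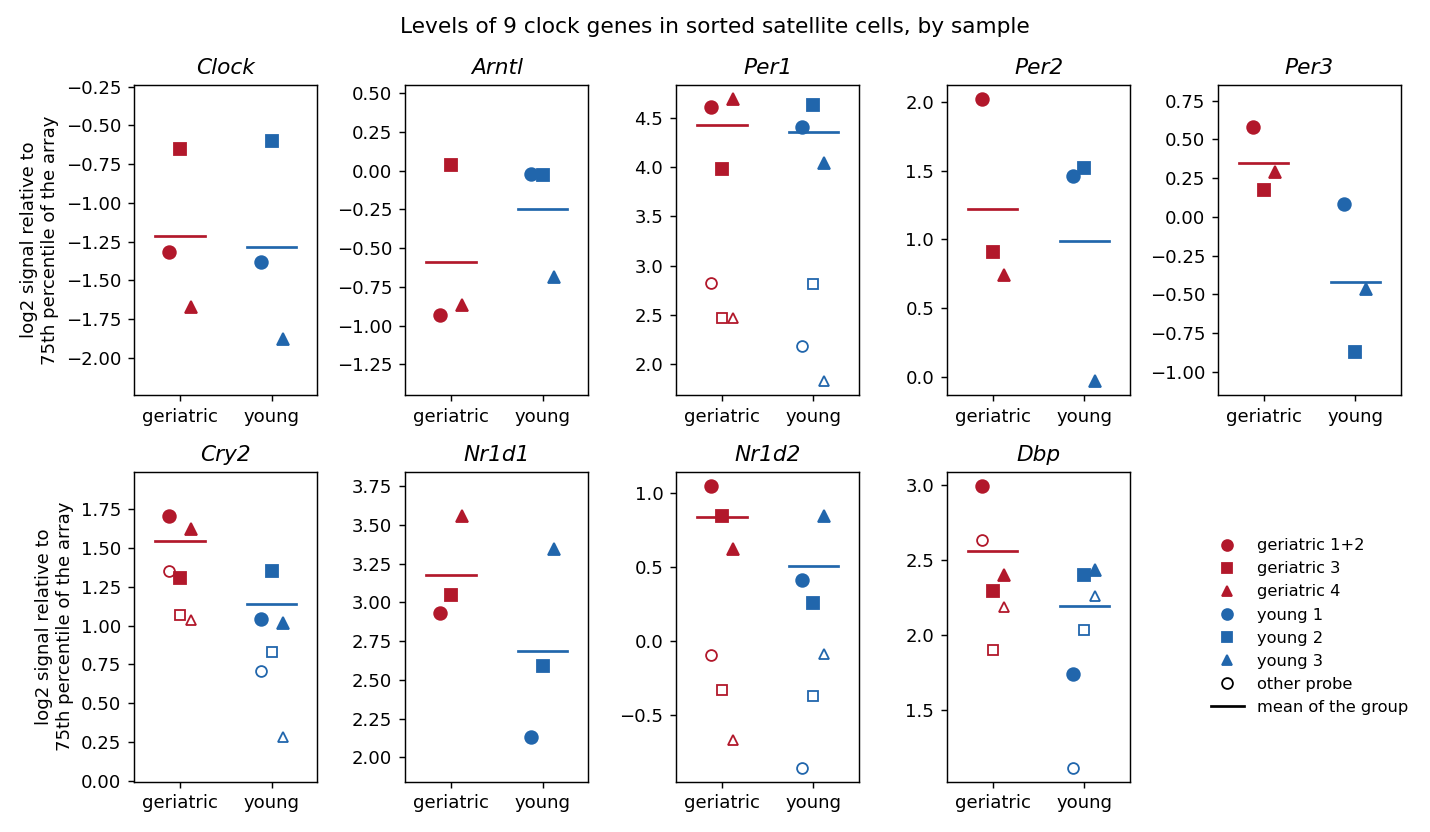
Level of each of the 9 tested clock genes (log2 signal relative to the 75th percentile of the array, vertical axis) in the 3 geriatric samples (red, left) and the 3 young samples (blue, right); filled symbols are the brightest probe, open symbols the gene's other probe, and lines the group mean of the brightest probe. Only for Per3 do the filled symbols of the 2 groups not overlap, with all geriatric samples at 0.17 or above and all young samples at 0.082 or below.

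The promoters of 4 of these genes show where motifs that clock factors are known to bind lie next to the start of the gene. They are Per3, the gene with the largest age difference of the 9, Per1, Cry2 and Nr1d1. In the reference set of RefSeq promoters on GRCm38.p6, 13 windows of 300 bases, 250 before to 50 after a start, matched 9 of the 10 members. Per2 had no window. They were searched on both strands for the E-box CACGTG, its variant CACGTT, the D-box TTATGTAA to which DBP binds, the receptor half-site AGGTCA and the CRE TGACGTCA. Printed below are the 250 bases before the start, 5′ to 3′ on the gene's strand, with the matches in capitals.
Per3: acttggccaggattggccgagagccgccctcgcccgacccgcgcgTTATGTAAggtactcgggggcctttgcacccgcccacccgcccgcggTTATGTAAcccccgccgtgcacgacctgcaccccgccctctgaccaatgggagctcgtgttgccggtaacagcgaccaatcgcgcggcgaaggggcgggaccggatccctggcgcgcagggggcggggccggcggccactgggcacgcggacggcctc
Per1: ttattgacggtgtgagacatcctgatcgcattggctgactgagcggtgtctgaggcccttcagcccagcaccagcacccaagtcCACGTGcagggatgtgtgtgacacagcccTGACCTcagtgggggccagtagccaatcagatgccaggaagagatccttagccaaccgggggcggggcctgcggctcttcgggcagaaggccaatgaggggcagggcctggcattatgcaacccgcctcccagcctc
Cry2: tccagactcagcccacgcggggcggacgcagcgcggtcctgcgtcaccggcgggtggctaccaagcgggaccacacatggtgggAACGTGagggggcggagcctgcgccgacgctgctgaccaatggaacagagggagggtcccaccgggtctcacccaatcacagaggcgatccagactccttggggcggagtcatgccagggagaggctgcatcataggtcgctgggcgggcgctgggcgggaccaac
Nr1d1: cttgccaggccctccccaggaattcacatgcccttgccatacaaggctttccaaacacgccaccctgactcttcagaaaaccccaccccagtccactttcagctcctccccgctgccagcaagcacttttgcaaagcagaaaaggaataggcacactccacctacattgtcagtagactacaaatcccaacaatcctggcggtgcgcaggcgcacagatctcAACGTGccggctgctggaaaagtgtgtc

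Per3 (chr4:151044666-151044915, minus strand) holds the D-box at 2 places, at positions -205 and -158 from the start, and 0.938% of the 32851 windows of all genes hold one. Per1 (chr11:69098699-69098948, plus strand, the first of its 2 windows) holds an E-box at -166, as 7.15% of windows do, and an inverted half-site at -137, as 16.3% do. Cry2 (chr2:92434070-92434319, minus strand) and Nr1d1 (chr11:98775378-98775627, minus strand) each hold the E-box variant in inverted form, at -166 and -28, as 4.68% of windows do. Of the 13 windows, 2 held the E-box, 3 its variant, 1 the D-box and 4 the half-site. The others were in Cry1 (E-box at -60, variant at -79), Nr1d2 (half-site at -77), the third Clock window (half-site at -119) and the second Arntl window (half-site 32 bases after the start). The Dbp window held none of the 5 motifs, and the CRE was in 0 of the 13 windows. A match shows the letters only. Sequence outside these windows was not searched, so a window without a motif does not show that the gene lacks it.

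The activators showed no age difference larger than the spread between samples. Arntl, whose product BMAL1 is the clock component that rhythm cannot do without, was at -0.93, 0.039 and -0.87 in the averaged geriatric sample and geriatric replicates 3 and 4, against -0.024, -0.031 and -0.69 in young replicates 1 to 3. The samples fell into 2 sets, 3 near 0 and 3 between -0.69 and -0.93, and both sets held samples of both ages. Arntl thus differed by -0.34 on the log2 scale (SE 0.35, 95% interval -1.19 to 0.51, limma adjusted p = 0.894); its probe lies on chromosome 7 at 120457261 to 120457320 of mm9. Clock, which encodes the partner of BMAL1, was at -1.32, -0.65 and -1.67 in geriatric samples, against -1.38, -0.60 and -1.88 in young samples. The 2 ranges nearly coincided, with a log2 difference of 0.073 (SE 0.42, 95% interval -0.96 to 1.10, adjusted p = 0.983 with limma; probe on chromosome 5, 76641377 to 76641436). Among the tested features, the pooled SD within groups of Clock was larger than that of 73% of features.

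Of the period genes, which encode the PER repressors, Per3 differed most and Per1 least, each read by its brightest probe. The other Per1 probe gave a log2 difference of 0.31, above the 0.24 of Per2. Per3 was at 0.58, 0.17 and 0.29 in the averaged geriatric sample and geriatric replicates 3 and 4, against 0.082, -0.87 and -0.47 in young replicates 1 to 3. Every geriatric sample was above every young sample, although young replicate 1 lay only just below geriatric replicate 3. Such a separation was seen for 1 of the 9 genes (11.1%), against 12.8% of all features in either direction and 7.18% in the direction of higher in geriatric cells. The log2 difference of Per3 was 0.77, or 1.70-fold (SE 0.29, 95% interval 0.060 to 1.47, limma adjusted p = 0.65), read by 1 probe on chromosome 4 at 150379256 to 150379315.

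Markers of fibro-adipogenic progenitors, the stromal cells of muscle, had summed levels that, like Per3, did not overlap between ages. Of the 7 in the list 6 were tested and 5 were higher in geriatric cells, where 49.7% of all features were. In the limma fit 0 passed (0.0255% of all features), and 3 had an unadjusted p under 0.05 (7.23% of all features). The ages did not overlap for 2 of the 6, Dpt and Mfap5, against 12.8% of all features. The summed linear level of the 6 was 8.04, 23.7 and 21.9 in the geriatric samples, against 6.74, 7.08 and 4.44 in the young samples. Dcn alone made up 72.6% to 91.0% of the sum in geriatric samples and 65.5% to 83.1% in young samples, and its own levels overlapped between ages. Sca1, an antigen of these cells that the sort selected against, is encoded by Ly6a. The Ly6a probe was well above background on 4 of the 7 arrays, 2 geriatric and 2 young. Pdgfra, the defining receptor of fibro-adipogenic progenitors, was well above background on 0 of the 7 arrays. A probe that stays dark does not show that the gene was silent. The highest Per3 level was in the averaged geriatric sample, which had the lowest marker sum of the geriatric samples. Lists of endothelial, leukocyte, myofibre and pericyte markers were also read, and their summed levels overlapped between ages. In them 2 of 3, 3 of 5, 5 of 5 and 2 of 4 tested genes were higher in geriatric cells. Of these genes 0 passed in the limma fit, and the ages did not overlap for 1, a pericyte marker (12.8% of all features). The part of any of these markers in the Per3 values was not tested.

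Per2 was at 2.02, 0.91 and 0.74 in geriatric samples and at 1.46, 1.52 and -0.029 in young samples. Young replicate 3 stood far below the other 5 samples, and the geriatric and young ranges overlapped. The log2 difference was 0.24 (SE 0.55, 95% interval -1.12 to 1.60, limma adjusted p = 0.958; probe on chromosome 1, 93313046 to 93313105), and leaving out young replicate 3 or the averaged geriatric sample gave -0.27 or -0.16. Within slide row 1, where geriatric replicate 1 was the only geriatric array, it was 1.03. Per1, the period gene that cyclic AMP signalling through CREB also induces within minutes to hours, was at 4.61, 3.98 and 4.69 in geriatric samples and at 4.40, 4.63 and 4.04 in young samples. Its log2 difference was 0.069 (SE 0.27, 95% interval -0.60 to 0.74, limma adjusted p = 0.977).

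Per1 had a second probe, assigned by the array design to the RefSeq transcript NM_011065 (chromosome 11, 68923364 to 68923423). It was at 2.82, 2.47 and 2.47 in geriatric samples and at 2.18, 2.82 and 1.83 in young samples, a log2 difference of 0.31 (SE 0.30, adjusted p = 0.885 with limma over 41261 probes). The brighter Per1 probe (68919895 to 68919954) is assigned to the cDNA AK081813, which was not matched in the reference table used here, nor were the transcripts of the brighter Cry2 and Nr1d2 probes. In both probes geriatric and young samples overlapped.

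Immediate early genes, which cells switch on within minutes of a stimulus such as tissue dissociation, were lowest in young replicate 3. Their levels in young replicate 3 still ran from 3.54 (Nr4a1) to 7.13 (Fosb), well above the percentile used for scaling. That sample had the lowest level of the 6 for 9 of the 9 immediate early genes examined, among them Fos, Jun, Egr1 and Atf3, and its median deviation from the genes' means was -0.37, against 0.0051 to 0.20 in the other 5 samples. It also had the lowest level of Clock, Per2 and Cry2 among the clock genes. Between ages, 8 of the 9 immediate early genes were higher in geriatric cells, where 49.7% of all features were, and 3 of 9 were higher without young replicate 3. Their log2 differences lay between -0.22 and 0.28. In the limma fit 0 passed (0.0255% of all features), and 0 had an unadjusted p under 0.05 (7.23% of all features). The part of this sample's immediate early levels in its clock gene levels was not tested.

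**Figure D2:**
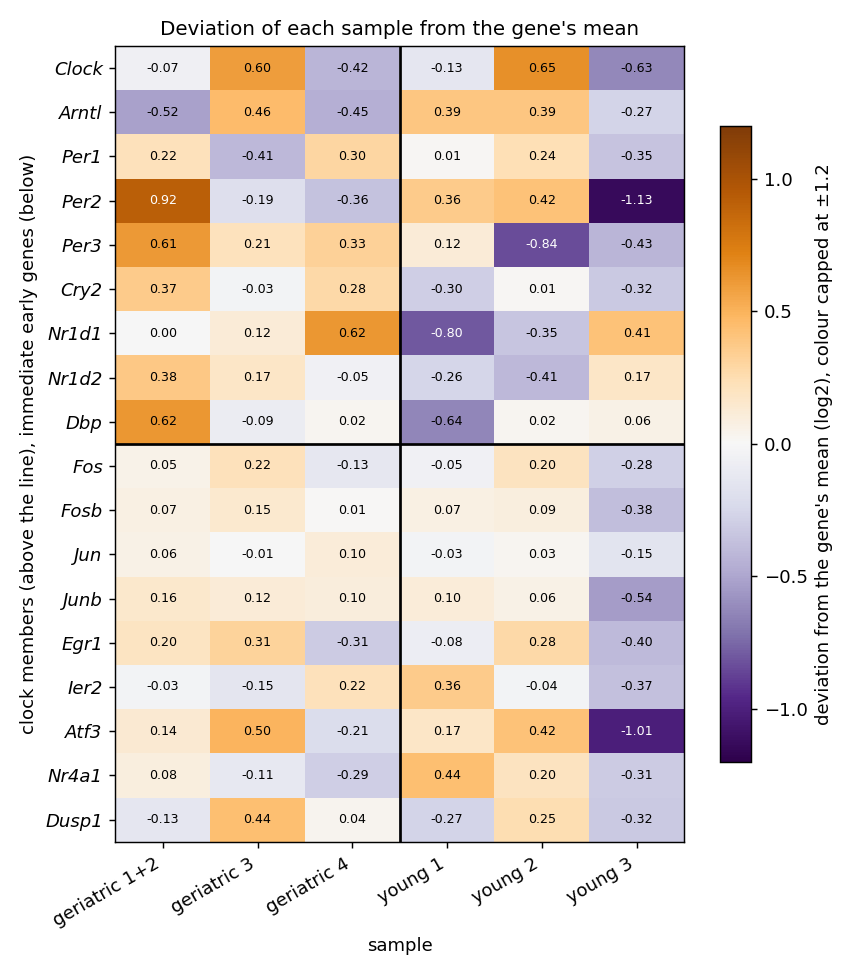
Deviation of each of the 6 samples (columns, 3 geriatric then 3 young) from the mean of the gene (log2 units, colour and printed value), for the 9 tested clock genes above the line and 9 immediate early genes below it. The last column, young replicate 3, is below 0 for every immediate early gene, with -1.01 at Atf3, and at -1.13 for Per2.

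Among the cryptochromes, the partners of PER in repression, Cry2 was measured by 2 probes that gave similar differences. The brighter probe, assigned to the transcript NM_001113333 (chromosome 2, 92251417 to 92251476), was at 1.71, 1.31 and 1.62 in geriatric samples and at 1.04, 1.35 and 1.02 in young samples. Only young replicate 2 reached into the geriatric range, and the log2 difference was 0.41, or 1.33-fold (SE 0.19, 95% interval -0.071 to 0.88, limma adjusted p = 0.738). The other probe, assigned to NM_009963 (92243807 to 92243866), was at 1.35, 1.07 and 1.03 in geriatric samples and at 0.71, 0.83 and 0.28 in young samples. There the ages did not overlap, and the log2 difference was 0.55 (SE 0.22, adjusted p = 0.68 with limma over all probes). Cry2 had the smallest spread of the 9 genes, with a pooled SD of 0.20 within groups, against a median of 0.36 over all tested features.

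Cry1, the other cryptochrome, could not be measured with these arrays. Its only probe (chromosome 10, 84594731 to 84594790) was not well above background on any of the 7 arrays. Its processed signal was 21.0, 8.72, 41.2 and 7.06 intensity units on geriatric arrays 1 to 4, and 19.9, 14.1 and 7.403 units on young arrays 1 to 3. On the same arrays, the dimmest probe that was well above background had 25.0 to 47.5 units. No fold is given for Cry1, and a probe that stays dark does not show that the gene was silent.

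The REV-ERB genes did not pass the test, and the ages overlapped for both. Nr1d1 was at 2.93, 3.05 and 3.56 in the averaged geriatric sample and geriatric replicates 3 and 4, against 2.13, 2.59 and 3.35 in young replicates 1 to 3. Young replicate 3 again lay apart from the other young samples, this time on the high side and inside the geriatric range. The log2 difference was 0.49, or 1.41-fold (SE 0.36, 95% interval -0.40 to 1.38, limma adjusted p = 0.838). It was 0.82 without young replicate 3, 0.21 without young replicate 1, 0.30 without geriatric replicate 4 and 0.25 within slide row 1. Its probe covers 98630526 to 98631028 on chromosome 11, a span longer than the probe itself.

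Nr1d2 was at 1.05, 0.84 and 0.62 in geriatric samples and at 0.41, 0.26 and 0.84 in young samples. Here too young replicate 3 was the highest young sample and matched geriatric replicate 3. The log2 difference was 0.33 (SE 0.23, 95% interval -0.23 to 0.89, limma adjusted p = 0.823; chromosome 14, 19036568 to 19036627). The dimmer Nr1d2 probe (19037253 to 19037312) was at -0.092, -0.33 and -0.66 in geriatric samples, against -0.85, -0.37 and -0.089 in young samples. It gave 0.073 (SE 0.28, limma adjusted p = 0.976), and its order of samples differed from that of the brighter probe.

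Dbp, a transcription factor of the PAR bZIP family whose own RNA follows CLOCK and BMAL1 closely, was at 3.00, 2.29 and 2.40 in geriatric samples and at 1.74, 2.40 and 2.43 in young samples. The averaged geriatric sample was the highest and young replicate 1 the lowest, and the other 4 samples lay between 2.29 and 2.43. The log2 difference was 0.37, or 1.29-fold (SE 0.30, 95% interval -0.36 to 1.10, limma adjusted p = 0.852; chromosome 7, 52965461 to 52965520). The second Dbp probe (52965322 to 52965381) was at 2.63, 1.90 and 2.19 in geriatric samples and at 1.11, 2.03 and 2.26 in young samples, a log2 difference of 0.44 (SE 0.37, limma adjusted p = 0.863).

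Over all 13 tested clock probes, 12 were higher in geriatric cells and 0 passed the limma test, against 0.0145% of the 41261 probes tested. The ages did not overlap for 2 of the 13 (15.4%), Per3 and the dimmer Cry2 probe, against 12.8% of all probes.

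The sample with the lowest Arntl was also the one with the highest level of Per2, Per3, Cry2, Nr1d2 and Dbp. In that averaged geriatric sample Arntl was 0.52 below its mean over the 6 samples, and Dbp 0.62, Per2 0.92 and Per3 0.61 above theirs. Nr1d1 was not raised there, at 2.93, a deviation of -0.0029 from its mean. It was higher, at 3.05, in geriatric replicate 3, the sample with the highest Arntl. Geriatric replicate 4 and young replicate 3, with Arntl at -0.87 and -0.69, had the highest Nr1d1 levels, at 3.56 and 3.35. Yet young replicate 3, although low in Arntl, had the lowest Per2 and Cry2 of the 6 samples, at -0.029 and 1.02. Of 8 planned relations of Arntl to the other members over the 6 samples, 0 passed after adjustment, and the smallest adjusted p was 0.371 for Pearson's r and 0.267 for Spearman's rho, by exact permutation tests. No r between Arntl and a member is given, because Arntl levels formed 2 separate sets of 3 samples.

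Beside Dbp, the other factors that act at D-boxes had small or widely spread differences. Hlf, of the same PAR bZIP family, differed by 0.81 on the log2 scale (SE 0.61), with -0.18, -2.25 and -2.04 in geriatric samples and -2.14, -1.88 and -2.90 in young samples, so that the averaged geriatric sample alone stood out. Tef differed by 0.037 (SE 0.24) and Nfil3, a repressor at the same motif, by -0.11 (SE 0.44).

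Of 27 further genes of the clock pathway 26 were tested. In geriatric cells 18 were higher and 8 lower, where 49.7% of all features were higher. Of the 26, 0 passed the limma test, against 0.0255% of all features. At an unadjusted limma p of 0.05, 3 passed (11.5%, against 7.23% of all features). The ages did not overlap for 5 of the 26 (19.2%, against 12.8%): Bhlhe41, Rorb, Wee1 and Tsc22d3 were above, and Fbxw11 below, the young values. The median log2 difference of the 26 was 0.10. Ciart, a repressor listed on the array as Gm129, was well above background on 0 of the 7 arrays.

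Bhlhe41 encodes DEC2, a repressor that competes with CLOCK and BMAL1 at E-boxes, and it had the largest difference of the list. It was at 1.11, 0.35 and 0.82 in geriatric samples and at -0.12, -0.96 and -0.52 in young samples, with a clear gap between the ages. The log2 difference was 1.29, or 1.07 to 1.67 over 18 other settings (SE 0.31, limma adjusted p = 0.395, range 0.139 to 0.809 over those settings). The 0.139 came with all 7 arrays as separate samples, which counts geriatric replicates 1 and 2 separately. The dimmer Bhlhe41 probe gave 1.59 (SE 0.25, limma adjusted p = 0.223 over all probes). Bhlhe40, which encodes the related DEC1, differed by -0.27 (SE 0.24).

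Rorb, a nuclear receptor of the family that activates Arntl, was at -2.12, -1.62 and -1.27 in geriatric samples and at -2.83, -2.75 and -2.54 in young samples. Its log2 difference was 1.04 (SE 0.26, limma adjusted p = 0.432), and its dimmer probe gave -0.015. Within slide row 1 the difference of Rorb was 0.52. Rora, of the same family, differed by 0.22 (SE 0.17). Wee1, a kinase that holds back mitosis and a known output of the clock, was at -0.81, -1.0025 and -0.76 in geriatric samples and at -1.65, -1.28 and -1.57 in young samples. Wee1 thus differed by 0.64 (SE 0.18, limma adjusted p = 0.492).

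Tsc22d3, which glucocorticoids induce and which cycles in many tissues, differed by 0.35 (SE 0.17, limma adjusted p = 0.744). Among the ubiquitin ligase components that act on PER and CRY proteins, Btrc differed by -0.44 (SE 0.20; its other probe 0.10), Fbxw11 by -0.23 (SE 0.15; its other probe -0.25), and Fbxl21 by 0.71 (SE 0.47). The Fbxl21 difference was 0.30 without young replicate 1, 1.04 without the averaged geriatric sample and 0.16 within slide row 1. The casein kinase genes Csnk1d, Csnk1e and Csnk1a1, whose products phosphorylate PER, lay between -0.069 and 0.030. Npas2 and Arntl2, relatives of Clock and Arntl, differed by -0.15 (SE 0.22) and -0.23 (SE 0.32).

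**Figure D3:**
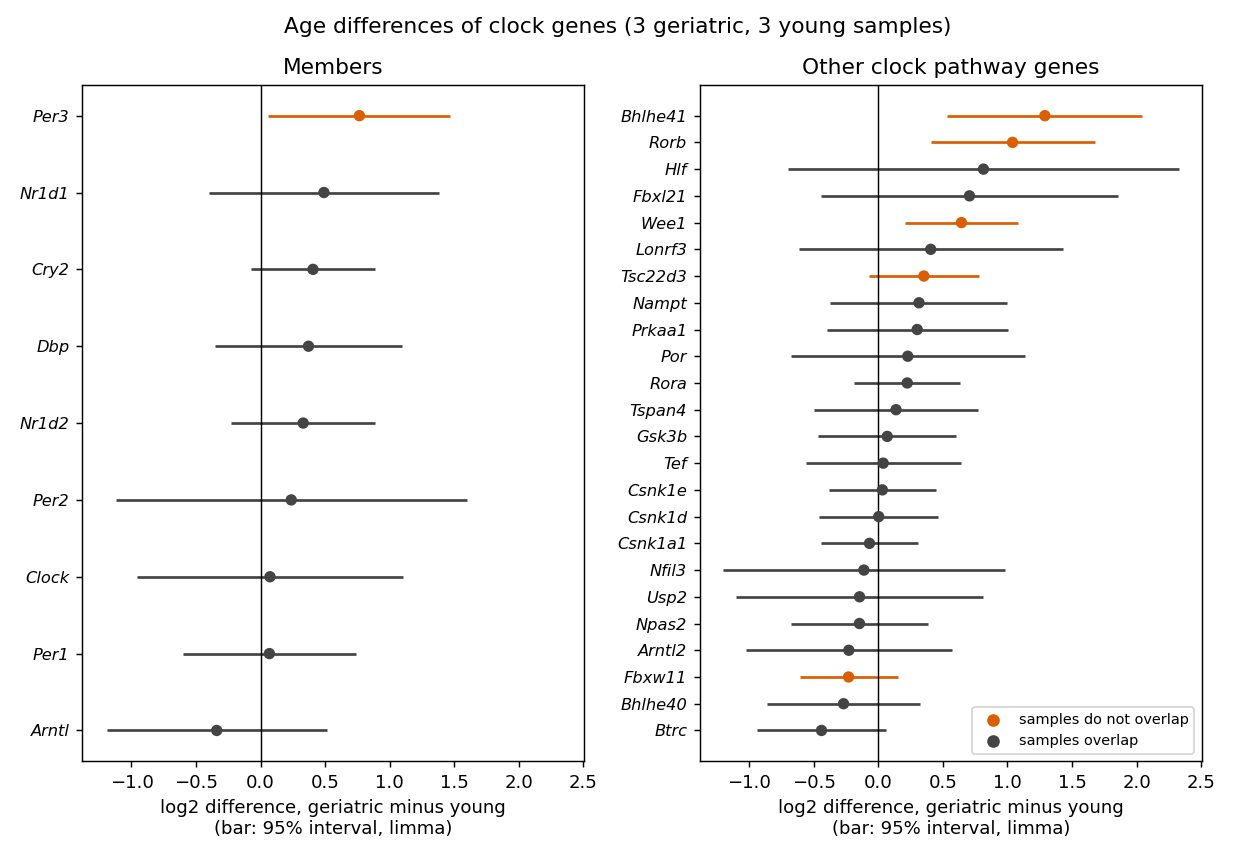
Log2 difference, geriatric minus young (points) with 95% interval (bars, limma), for the 9 tested members on the left and 24 of the 26 other clock pathway genes on the right; orange marks genes whose 3 geriatric and 3 young samples do not overlap. Of the members only the interval of Per3, from 0.060 to 1.47, lies wholly above 0, before adjustment for the number of features tested.

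**Figure D4:**
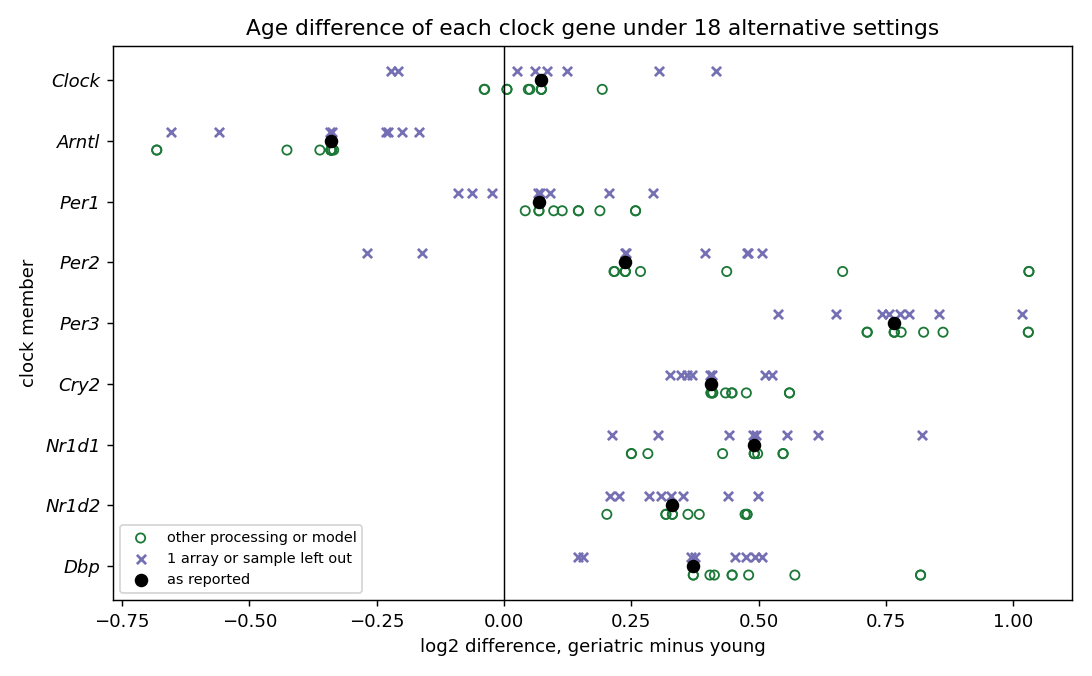
Log2 difference, geriatric minus young (horizontal axis), of each tested clock gene as reported (black) and under 18 alternative settings, 8 of which leave out an array or sample (crosses). Per3, Cry2, Nr1d1, Nr1d2 and Dbp stay above 0 and Arntl below 0 in all 18, while Clock, Per1 and Per2 fall on both sides. Some settings give equal or nearly equal differences and are not independent.

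Under all 18 alternative settings the sign was kept by 6 of the 9 members, Arntl, Per3, Cry2, Nr1d1, Nr1d2 and Dbp, and 0 members passed the limma test. The settings are not independent checks. Changing the filter on dim probes left every member's difference as reported, and the row block gave the same differences as slide row 1 alone. Normexp and the authors' values nearly coincided, and dropping geriatric replicate 1 or 2 kept its near-identical partner. Over these settings the log2 difference of Per3 was 0.54 to 1.03, that of Cry2 0.33 to 0.56, that of Nr1d1 0.21 to 0.82, that of Nr1d2 0.20 to 0.50 and that of Dbp 0.15 to 0.82. Arntl ranged from -0.68 to -0.17. The lowest limma adjusted p of any member in any setting was 0.312, for Per3 with all 7 arrays as separate samples. That setting counts geriatric replicates 1 and 2, which share a sample name, separately.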

How the data were processed

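Per the file headers, version 10.7.3.1 of Agilent's Feature Extraction made the deposited processed intensity, from the mean spot signal by subtracting a background fitted by spatial detrending, followed by multiplicative detrending. The authors' deposited value table holds log2 values with a median of 8.02 on every array, and they tracked the log2 mean signal. Levels here are log2 processed signal after scaling each array to its 75th percentile. Control and outlier spots were left out, spots of a probe were averaged, and probes well above background on at least 3 of 7 arrays were tested (41261 probes). A gene's brightest tested probe stood for the gene, giving 27398 features; further probes were read in a fit over all tested probes. Geriatric replicates 1 and 2 were averaged. Differences (geriatric minus young) were tested with limma 3.58.1 in R 4.3.3, 2-sided, with Benjamini-Hochberg adjustment and a threshold of 0.05. All arrays were on 1 slide with 1 scan date. The number of arrays limits the precision, and the p-values reflect only the spread among these samples, which may be technical.

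The text names the 10 members, pathway genes that pass, the 8 pathway genes of smallest unadjusted p, and others whose role is described, chosen after their values were seen. A few genes that this rule or the lists hold are not reported here by name, though the counts include them. Members and lists were chosen with earlier results of these data known. Of the 14 member probes, 11 carry a transcript matched in the GRCm38.p6 reference table. Probe positions come from the array files and refer to mm9; the exon or UTR holding each probe was not determined here.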

Additional observations from a re-analysis of the deposited data

How the results depend on the processing

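The number of features called was 7. It was 4 with normexp background correction and with the authors' values, 2 with probes well above background on all 7 arrays, and 64 with all 7 arrays as separate samples. It was 0 with the slide row as a block (1633 features at an unadjusted limma p of 0.05), 3 within slide row 1 alone, and 0 to 8 with 1 array left out, with 0 when young replicate 1, young replicate 2 or geriatric replicate 4 was dropped (1622, 2146 and 2115 at an unadjusted limma p of 0.05). Dropping the averaged geriatric sample left 1. With the replicate number as a block it was 0, with 3553 at an unadjusted limma p of 0.05. Each array was also taken as a deviation from its group's mean. These deviations correlated at -0.051, 0.066 and 0.0049 between same-numbered young and geriatric arrays, so the numbers showed no pairing of the samples. The row block takes the age difference from row 1, because row 2 holds geriatric arrays only. Members higher in geriatric cells numbered 5 to 8 with 1 array left out. The log2 difference of Clock was -0.038 with normexp and -0.039 with the authors' values. With 1 array or the averaged sample left out, Clock ranged from -0.22 to 0.42, Per1 from -0.090 to 0.29 and Per2 from -0.27 to 0.51. Clock was negative when young replicate 3 (-0.22) or geriatric replicate 3 (-0.21) was dropped, Per1 when young replicate 3 (-0.090), geriatric replicate 4 (-0.063) or the averaged sample (-0.023) was, and Per2 when young replicate 3 (-0.27) or the averaged sample (-0.16) was. The difference of Per2 was 0.66 with the replicate block (limma adjusted p = 0.325) and 1.03 with the row block and within row 1. Immediate early genes higher in geriatric cells, a count added after seeing the data, numbered 3 to 8 over the settings. The cause of these changes was not tested. With 3 samples a group the intervals of most members hold differences of either direction, and the only Cry1 probe was not well above background.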

Other observations

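Npas2, which encodes a partner of BMAL1 that can stand in for CLOCK, ran opposite to Dbp across the samples, a pair singled out after the values were seen. Npas2 was at 1.68, 2.18 and 2.22 in the averaged geriatric sample and geriatric replicates 3 and 4, against 2.37, 2.11 and 2.05 in young replicates 1 to 3. Over the 6 samples Pearson's r was -0.94 (exact permutation p = 0.0222) and Spearman's rho was -0.83 (exact permutation p = 0.0583). Of 34 relations of Dbp to clock genes none passed after adjustment, and for Npas2 the adjusted p was 0.756 and 0.582. Without young replicate 1 and the averaged geriatric sample, the 2 samples farthest from the median of Dbp, r was -0.56 over the other 4, a narrower range of Dbp and too few samples to test.

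Among 14227 named features the 5 with levels most like those of Dbp over the 6 samples, by Pearson's r as a description, were Psapl1, Cypt2-ps, Haus8, Nrsn1 and Mirg (r of 0.98 to 0.99). Among those most like Arntl were Spast, Paqr8, Fbxo38 and Serinc4 (r of 0.98 to 0.99). Arntl levels fell into separate sets of samples, as described above, so a high r with Arntl can reflect that split alone. The points share the arrays and their scaling, and 6 samples give high values among so many features. No clock gene was among the 5 most like Dbp; the nearest was Por, at r = 0.77.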
